A study of Mus musculus with 19 samples.

Results

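A set of 5720 genomic regions carried 5-hydroxymethylcytosine (5hmC) peaks in wild-type reprogramming cells at days 0 and 2, had none in wild type at day 10, and also had none at day 10 in at least 1 of a pair of knockout lines. They were selected on the peak lists themselves. The peaks of the 9 wild-type lists on chromosomes 1 to 19 were merged wherever they overlapped by 1 bp, which gave 294585 regions. Of these, 22324 had a peak in all 3 day 0 and all 3 day 2 wild-type lists, and 12325 of those had none in any of the 3 day 10 lists (WT-lost regions). The 5720 regions, called cleared here, are 46.4% of the 12325 and 1.94% of all merged regions. The other 6605, called retained, had a day 10 peak in both knockout lines and are the comparison set throughout. "Cleared" describes the absence of a day 10 peak only, and the peaks that each knockout line had before day 10 are given below.

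5hmC is made by TET enzymes, which oxidise 5-methylcytosine and use ascorbic acid as a stimulating cofactor. It is an intermediate on the way to unmethylated cytosine, and it is also a mark of active enhancers and gene bodies. A region that no longer carries it may have lost methylation altogether or gone back to the methylated state, and enrichment of 5hmC alone does not tell these apart. Pre-iPSCs are partly reprogrammed cells that stall before pluripotency, and the series followed their conversion to induced pluripotent stem cells. The compounds named 2i block the kinases GSK3 (CHIR-99021) and MEK (PD-0325901).

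Both knockout (KO) lines, KO1 and KO2, and the wild type (WT) were pre-iPSCs derived from mouse embryonic fibroblasts, under ascorbic acid at 50 µg/mL with 2i, with harvests at day 0 (D0), day 2 (D2) and day 10 (D10). The labels give this treatment to all of these libraries, D0 included, and do not name the deleted gene, say whether both lines lack the same one, or give the strain or the number of clones. KO1 and KO2 had 1 library per day each and WT had 3, with the letters A, B and C. V6.5 mouse embryonic stem cells (mESC), also labelled with ascorbic acid and 2i, had 1 library each at 0, 12 and 72 hours. Nothing in the peak lists could check the labelled cell types, since no marker genes were measured.

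Pre-iPSC lists held 55134 (WT D10 C) to 161004 (WT D2 A) peaks. Depth, read from the steps of the fold values, was 1.15 to 1.67 times the input in the 6 KO lists and 1.02 to 1.64 times in 8 WT lists. The WT D0 C list went against the others: its background did not match the shared input, its run name mentions no input, and it was the shortest D0 list among WT with 61975 peaks. Without it the cleared set would number 8802. Without it 45.9% of WT-lost regions lacked a KO2 D10 peak and 7.73% a KO1 D10 peak, and the differences from retained regions given below were -11.6 percentile points in strength, -124 bp in width and -14.8 points in the share with a KO peak. Run names with the word "All" mark WT B and KO1, and those with the word "Day" mark WT C and KO2. What these styles mean is not given, and style and line cannot be told apart among KO lists.

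The absence of a D10 peak was very unequal between the lines. KO2 had no D10 peak in 5423 of the 12325 regions (44.0%) and KO1 in 770 (6.25%), 7.04 times as many in KO2. Among all 22324 regions with peaks in the 6 WT lists of D0 and D2, whatever their state in WT at D10, 32.1% had no D10 peak in KO2 and 4.99% had none in KO1. The cleared regions therefore divide into 4950 without a D10 peak in KO2 alone (86.5%), 297 without one in KO1 alone (5.19%) and 473 without one in either line (8.27%). The 473 regions make up 61.4% of those without a KO1 D10 peak and 8.72% of those without a KO2 D10 peak. Since these counts are what the rule selected on, they are given as a description and were not tested.

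The D10 lists of the lines were nearly equal in number, 111281 peaks in KO2 and 112303 in KO1. KO2 covered less sequence, 43.1 Mb on chromosomes 1 to 19 against 51.8 Mb in KO1, at a depth of 1.16 against 1.47 times the input. With the 54997 strongest peaks of every pre-iPSC list, the shares were 50.1% in KO2 and 6.92% in KO1. The KO D10 lists were near equal before this cut, so it cannot show the part of list length in the gap. The part of depth itself in the gap was not tested. Equal lists left 2547 cleared regions.

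**Figure D1:**
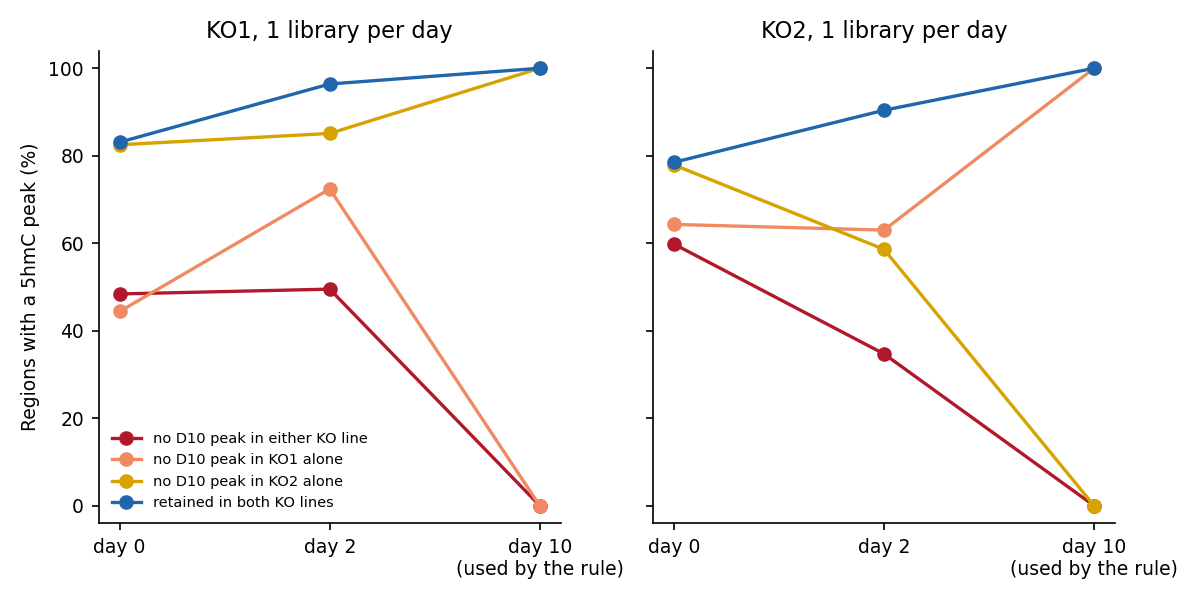
Share of regions with a 5hmC peak (%) by day in KO1 and KO2, 1 library per point, for the 3 classes of cleared regions and for retained regions; the D10 points were fixed by the rule. At D2 in KO2, 58.6% of the regions without a D10 peak in KO2 alone had a peak, against 90.4% of retained regions, while at D0 the shares were 77.9% and 78.5%.

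Most but not all cleared regions had been marked earlier in the line that lacked them at D10. Of the 5423 regions without a KO2 D10 peak, 4614 (85.1%) had a KO2 peak at D0 or D2, and 2588 (47.7%) had one on both days. A further 1549 had a KO2 peak at D0 alone and 477 at D2 alone. The remaining 809 (14.9%) had none in any KO2 list, so a loss over time cannot be read for them. Of the 770 without a KO1 D10 peak, 601 (78.1%) had an earlier KO1 peak and 169 (21.9%) had none. The earlier peaks of KO1 were divided differently: 209 regions (27.1%) had one on both days, 152 at D0 alone and 240 at D2 alone. Of the 473 regions without a D10 peak in either line, 253 had an earlier peak in both lines and 48 in neither. Retained regions had been marked earlier more often. In KO2, 95.5% of them had an earlier peak and 73.4% had one on both days. In KO1 these shares were 99.0 and 80.5%.

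KO lines at D0 and D2 were not used by the rule, so the share of regions with a peak there was compared between the sets. Retained regions were longer (median 884 bp against 699 bp) and so offer more sequence for any peak to overlap. The part of length in these shares was not tested. At D0, 75.7% of cleared regions had a peak in KO2 (95% Wilson interval 74.5 to 76.8%), against 78.5% of retained regions (77.5 to 79.5%). The KO1 D0 shares were 77.7% of cleared and 83.1% of retained regions. At D2 the sets stood further apart, with 56.9% of cleared (55.6 to 58.1%) and 90.4% of retained regions (89.6 to 91.1%) in KO2. In KO1 at D2 the shares were 81.5% of cleared and 96.4% of retained regions. Cleared regions had the lower share in 4 of 4 libraries, by 14.2 ± 13.9 points on average (SD, n = 4, cleared minus retained -14.2; two-sided exact sign-flip test p = 0.125, the smallest that 4 libraries allow). Wilson intervals cover counting error over regions only, and regions of a library are not replicates.

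Within 5 equal bins of mean WT peak strength over D0 and D2 together, the D2 gap was still there and the D0 gap was not. At D2 cleared minus retained was -30.9 points in KO2 and -13.7 in KO1. At D0 it was 1.93 in KO2 and 0.236 in KO1. The mean of the 4 libraries was -10.6 (exact sign-flip p = 0.5). These bins do not match the sets on each day. Cleared minus retained in WT strength was -19.8 percentile points at D2 and -0.804 at D0. Within a bin, cleared regions can thus be weaker in WT at D2 and stronger at D0. The part of this in the binned values was not tested. The days also differed within KO2. Among the 12325 regions, those with no KO2 peak at D2 lacked the KO2 D10 peak in 76.0% of cases, against 33.2% of those with one. Presence at D0 made little difference in KO2, with 45.8% of regions without a D0 peak and 43.5% of regions with one. In KO1 both days separated the regions: 24.8% without and 4.07% with a D2 peak lacked the D10 peak, and 17.1% without and 3.63% with a D0 peak.

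The class without a D10 peak in either line had the lowest share of D2 peaks in both lines, 34.7% in KO2 (30.5 to 39.1%) and 49.5% in KO1 (45.0 to 54.0%). Regions without one in KO1 alone had a D2 peak in 63.0% of cases in KO2 and 72.4% in KO1. Regions without one in KO2 alone had a D2 peak in 58.6% of cases in KO2 and 85.1% in KO1. At D0 the class without a D10 peak in either line stood at 59.8% in KO2 and 48.4% in KO1. The class of KO1 alone stood at 64.3% in KO2 and 44.4% in KO1, the lowest share in KO1 on that day. The class of KO2 alone stood at 77.9% in KO2 and 82.5% in KO1, close to retained regions.

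The rule did not use WT peak strength at D0 and D2 to part cleared from retained regions, since every region of both sets had a peak in all 6 lists. Strength is not fully separate from the rule, however. Retained regions were longer (median 884 bp against 699 bp), and a longer region offers more sequence for a KO D10 peak to overlap. The part of this in the strength difference was not tested. Strength is given as the percentile, by -log10 p, of a region's strongest peak within its own list, and the sets are compared within a list. A percentile also depends on how many weak peaks a list holds. These WT lists held 61975 (D0 C) to 161004 (D2 A) peaks, so gaps in different lists are not on one scale. At D2 cleared regions had median percentiles of 66.9, 63.2 and 59.0 in A, B and C, against 84.7, 83.0 and 80.6 in retained regions. At D0 the medians were 69.4, 74.9 and 66.5 in cleared regions, against 69.4, 74.9 and 68.9 in retained regions. All 3 D2 libraries thus separated the sets, and at D0 A and B gave the same median for both.

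Cleared minus retained averaged -19.8 ± 1.93 percentile points at D2 and -0.804 ± 1.39 at D0 (SD, n = 3 each). The gap was wider at D2 than at D0 in each letter (two-sided exact permutation of 3 against 3 libraries p = 0.1, the smallest possible). This split by day was added after the values were seen. Over the 6 libraries together the difference was -10.3 ± 10.5 points (SD, n = 6, below 0 in 4 of 6, exact sign-flip p = 0.125, where 0.0312 is the smallest). With lists of equal length it was -3.8 ± 3.89 points (exact sign-flip p = 0.0938), with -7.18 ± 1.48 at D2 and -0.425 ± 1.18 at D0 (SD, n = 3 each). In that setting each peak kept its percentile in the whole list, so the weaker percentiles were absent by construction. Peaks among the strongest 10% of a D2 list stood in 11.5 ± 1.75% of cleared and 34.5 ± 3.37% of retained regions (SD, n = 3 each). At D0 the shares were 20.8 ± 3.48% and 22.6 ± 2.89%.

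Cleared regions were also narrower. The bp under peaks had medians of 402, 417 and 370 at D2 in cleared regions (A, B and C), against 602, 608 and 540 in retained regions. At D0 the medians were 430, 558 and 377 bp in cleared regions, against 477, 635 and 414 bp in retained regions. The difference was -120 ± 74.9 bp and below 0 in 6 of 6 libraries (SD, n = 6, two-sided exact sign-flip p = 0.0312, the smallest possible). It was -187 ± 15.4 bp at D2 and -53.5 ± 20.5 bp at D0 (SD, n = 3 each). With any 1 of the 6 libraries left out, the difference lay between -127 and -106 bp, and the smallest p that 5 libraries allow is 0.0625. Merged length followed the same order, with a median of 699 bp (297 to 3482) in cleared and 884 bp (311 to 4932) in retained regions. A longer merged region offers more sequence for a KO D10 peak to overlap, so width is not separate from the rule. The part of this in the difference was not tested.

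**Figure D2:**
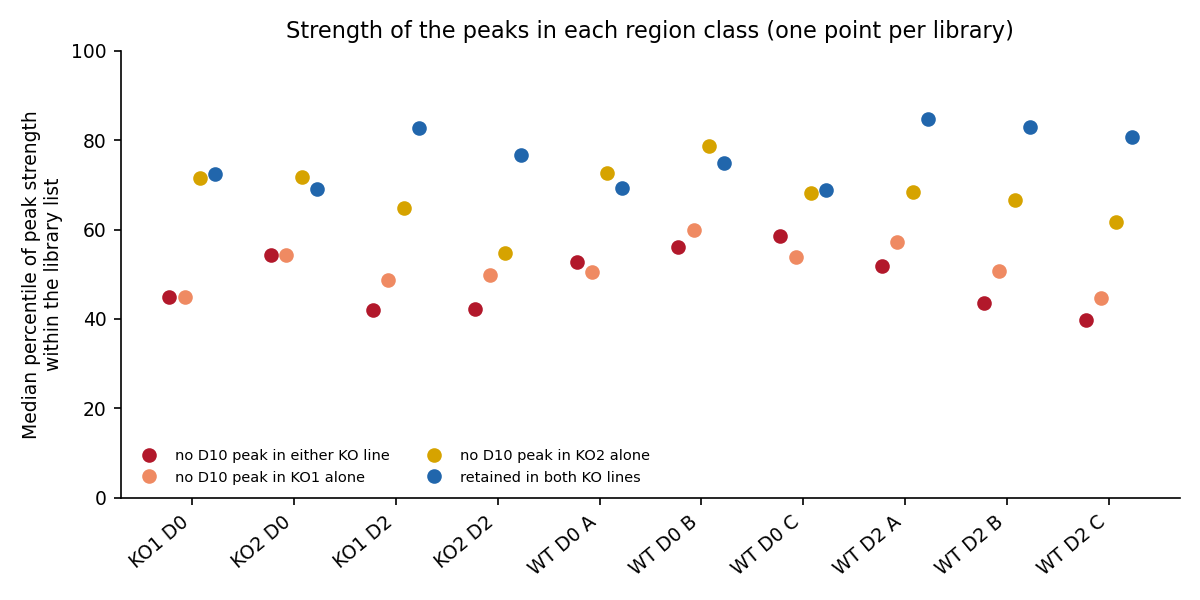
Median percentile of peak strength within the library's own list for each class of regions, 1 point per class and library, with KO libraries on the left and WT libraries on the right; in KO libraries only regions with a peak enter. The class without a D10 peak in KO2 alone lies near the retained regions at D0 and below them at D2; the other 2 cleared classes lie lowest in the lists shown.

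The 3 classes differed in WT too. Regions without a D10 peak in KO2 alone had mean median percentiles of 65.5 ± 3.52 at D2 and 73.2 ± 5.22 at D0 (SD, n = 3 each). Those without one in KO1 alone stood at 50.9 ± 6.35 at D2 and 54.8 ± 4.77 at D0. Those without one in either line stood at 45.0 ± 6.18 at D2 and 55.8 ± 2.92 at D0. Retained regions stood at 82.8 ± 2.06 at D2 and 71.1 ± 3.33 at D0. Within the D0 lists A, B and C, the class of KO2 alone had medians of 72.7, 78.6 and 68.2. Retained regions had 69.4, 74.9 and 68.9, so this class lay above them in A and B and below them in C. Ranked by fold, it lay above them in all 3 lists, with 73.1, 77.4 and 60.2 against 68.4, 76.0 and 57.7. Both classes without a KO1 D10 peak had weaker peaks than retained regions at D0.

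When the 12325 regions were divided into 5 equal bins of WT strength, the share cleared was lower at each step of D2 strength, with 71.0, 59.7, 48.2, 35.0 and 18.2% from the weakest bin to the strongest. By strength at D0, over all D2 bins together, it was nearly flat, with 45.5, 47.4, 48.0, 47.0 and 44.2%. KO2 followed this pattern, with 65.5% of the weakest and 18.1% of the strongest D2 bin lacking its D10 peak, and 40.8 and 43.4% of the weakest and strongest D0 bins. Within a D2 bin, however, the KO2 share was higher in the strongest D0 bin than in the weakest. From the weakest D2 bin to the strongest, the weakest D0 bin had 61.0, 48.9, 38.0, 23.5 and 13.1%. The strongest D0 bin had 66.5, 60.8, 53.5, 38.8 and 21.5% in the same order. KO1 differed, since its shares were lower at greater strength on both days. They were 16.6% in the weakest and 0.203% in the strongest D2 bin, and 11.6% in the weakest and 1.62% in the strongest D0 bin. These shares are descriptions over regions, with no test.

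**Figure D3:**
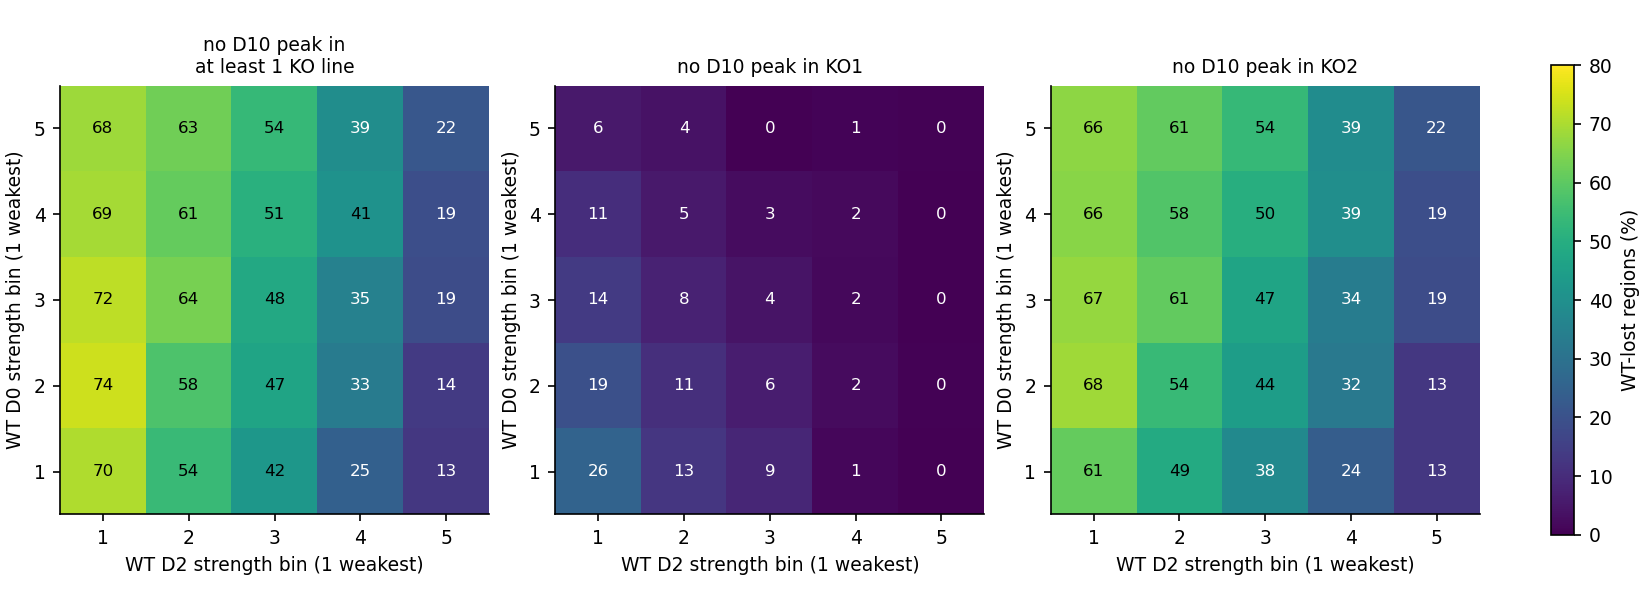
Share of the 12325 regions (%) without a D10 peak in at least 1 KO line (left), in KO1 (middle) and in KO2 (right), by bin of mean WT peak strength at D2 (horizontal) and D0 (vertical), where 1 is the weakest. In the left panel the share changes along the D2 axis (71.0% to 18.2% over all D0 bins) far more than along the D0 axis.

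The change from D0 to D2 was tested region by region on log2(covered bp + 200), with each library scaled to the mean total, in limma over 149392 regions with a peak in at least 3 of the 10 WT and KO libraries of these days. In KO, 837 cleared regions fell (14.6%) and 112 rose at an adjusted p under 0.05, where 4.33% of all regions tested fell and 7.74% rose. Of retained regions 349 fell (5.28%) and 336 rose (5.09%). All regions are not a like background here. At D0, 19.1% of all merged regions had a KO1 peak and 23.5% a KO2 peak, against 77.7% and 75.7% of cleared regions. Retained regions, with 83.1% and 78.5%, are the closer comparison. This holds for the KO shares of all regions given below too. In the class of KO2 alone 755 of 4950 fell (15.3%) and 83 rose, and in the class of neither line 67 of 473 fell (14.2%) and 14 rose, so both had similar rates. In the class of KO1 alone 15 of 297 fell (5.05%) and 15 rose. The median log2 change was -0.64 in cleared, -0.26 in retained and 0.37 in all regions tested. With the line as a replicate block, which pairs KO1 with KO1 and KO2 with KO2, limma called 0 regions in KO. An unadjusted p under 0.05 was then found for 2205 cleared regions (38.5%), 1632 retained regions (24.7%) and 26.8% of all regions tested.

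In WT, 568 cleared regions fell (9.93%) and 2 rose at the same threshold, where 7.79% of all regions tested fell and 16.1% rose. Among retained regions 506 fell (7.66%) and 47 rose. The share that fell is thus near the background in both sets. The rule asked for peaks on both days in WT, so the WT change uses values that chose both sets, and only cleared against retained can be compared. Rises also moved with the scaling: without any, 30 cleared (0.524%) and 314 retained regions (4.75%) rose. The median log2 change in WT was -0.50 in cleared regions, -0.31 in retained regions and 0.27 over all regions tested. Relative to all regions, cleared regions lay 0.78 and retained regions 0.59 lower, as a description.

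The change in KO minus the change in WT was called in 0 of 149392 regions (0%) by limma, cleared ones included. At an unadjusted p under 0.05, 600 of the 5720 cleared regions (10.5%), 619 retained regions (9.37%) and 10098 of all regions (6.76%) differed. The median of this difference was -0.13 in cleared and 0.05 in retained regions. One library decides this count: without KO1 D2, limma called 321 cleared regions lower (5.61%) and 77 higher (1.35%), where 7.49% of all regions were lower and 1.22% higher. That fit leaves KO2 as the lone KO library of D2, assumed to vary like the other groups.

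The number of calls depended on single libraries. Cleared regions that fell in KO numbered 227 without KO1 D0 and 1394 without KO1 D2. These are 3.97 and 24.4% of cleared regions, against 1.49 and 4% of all regions. Those that fell in WT numbered 263 (4.6%) without WT D0 A, and 182 (3.18%), 201 (3.51%) and 328 (5.73%) without WT D2 A, B and C. All regions fell in 4.67, 5.59, 5.2 and 5.39% of cases in these 4 fits, so cleared regions were above this background in 1 of them. Without KO1 D2 and without KO2 D2, 871 (15.2%) and 970 (17%) cleared regions fell in WT, against 8.56 and 8.37% of all regions. The order of the medians held throughout: cleared minus retained was below 0 under all 17 alternatives, from -0.78 to -0.25 in KO and from -0.56 to -0.12 in WT. Without scaling, the cleared median was -0.23 in KO and -0.09 in WT, and the retained median turned to 0.16 in KO and 0.13 in WT.

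**Figure D4:**
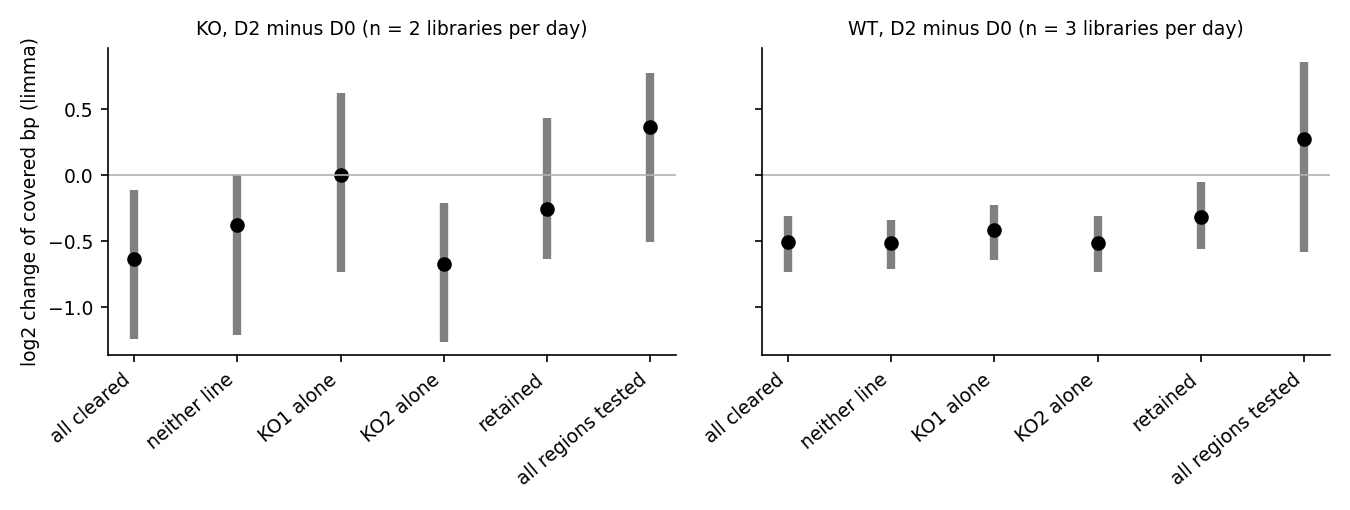
Median (points) and interquartile range (bars) over regions of the log2 change of covered bp from D0 to D2, in KO on the left and in WT on the right, for all cleared regions, their 3 classes, retained regions and all regions tested. Cleared regions have the lower median in both arms, -0.64 against -0.26 in KO and -0.50 against -0.31 in WT, while all regions tested lie above 0.

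The chromosomes held similar shares, with chromosome 5 apart from the rest. KO1 lacked the D10 peak in 4 of the 740 regions of chromosome 5 (0.541%), against 5.54 to 9.02% on the other 18 chromosomes. KO2 lacked it in 416 (56.2%), against 37.3 to 47.6% elsewhere. Chromosome 5 also held an unusual share of all KO1 peaks, with 10.3% on each of the first 2 harvests and 10.5% on the last. In KO2 the shares were 5.56%, 4.76% and 4.29% in the same order, and 5.41 to 6.81% of WT peaks of D0 and D2 lay there. The part of this excess in the KO1 values on chromosome 5 was not tested. Leaving chromosome 5 out, a step added after the values were seen, gave 5304 cleared regions, with 4538 of KO2 alone, 297 of KO1 alone and 469 of neither line, and 6281 retained regions.

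**Figure D5:**
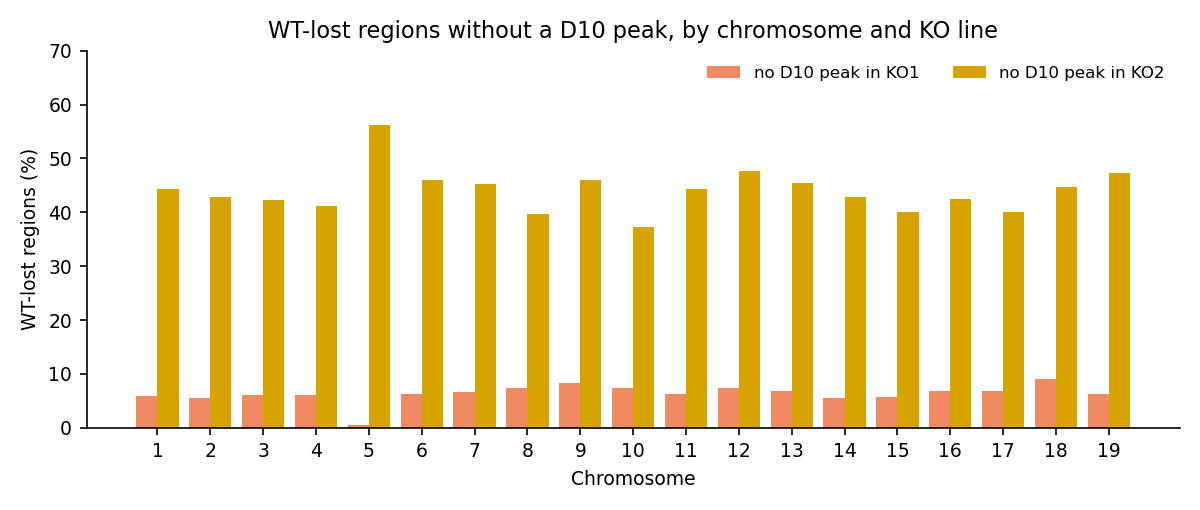
Share of the WT-lost regions of each chromosome (%) without a D10 peak in KO1 and in KO2; bars start at 0 and each line had 1 library. Chromosome 5 is lowest for KO1 (0.541%) and highest for KO2 (56.2%).

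Cleared and retained regions were intermingled along the chromosomes. The nearest of the 12325 regions was also cleared for 47.7% of cleared regions, against 46.4% of all 12325. For regions without a KO2 peak the value was 45.5% against 44.0% of all 12325, and for those without a KO1 peak 8.44% against 6.25%. Where the neighbour lay within 10 kb, the values were 48.6% for cleared regions and 47.0% for those without a KO2 peak. For those without a KO1 peak it was then 12.7% (22 of 173), so these lay next to one another more often than their share. The longest runs without a KO2 D10 peak held 10 consecutive regions, at chr11:107603086-108189405 and chr8:74251920-80664112, and 9 regions at chr6:124611572-124861066, which is 1 of 5 runs of that number. The first spans 586 kb and the second 6410 kb, so the second is a sparse stretch. For KO1 no run was longer than 3 regions, at chr19:42695130-42727934, chr17:87302035-87382382 and chr7:56453258-56581762. Positions are those of mm9. Without gene models of that build at hand, no gene, exon or promoter is assigned to them.

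The mESC lists were not used by the rule either. Here too retained regions were longer, and the part of length in the shares was not tested. At 0 hours, 15.3% of cleared regions had an mESC peak (14.4 to 16.3%), against 20.9% of retained regions (19.9 to 21.9%) and 7.78% of all merged regions. At 12 hours the shares were 5.35% of cleared, 7.27% of retained and 8.63% of all merged regions. At 72 hours they were 0.385% (22 regions), 0.590% and 5.66%. Among all 22324 regions with peaks in the 6 WT lists the shares were 22.9, 15.7 and 3.99% at 0, 12 and 72 hours, above both sets at each time. Cleared minus retained was -5.61, -1.92 and -0.206 points at 0, 12 and 72 hours, with 1 library per time and so no test. Without WT D10 A in the rule it was -6.55, -3.0 and -0.535 points.

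The regions named next are the strongest of each class by mean percentile in WT and so are not typical of it. Their values are the authors' fold enrichment of the strongest peak, with no value where a list has no peak. In the class of KO2 alone the strongest was chr10:23067728-23069240 (1513 bp). Its fold in KO1 was 9.42 at D0, 9.85 at D2 and 12.4 at D10, and KO2 had no peak on any day. WT replicates A, B and C had 16.1, 14.1 and 7.14 at D0, then 16.3, 13.5 and 11.3 at D2. This region is cleared by the rule, and KO2 never showed it as marked.

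The region chr5:67997789-67998779 had a fold of 12.7 in KO2 at D0 and no KO2 peak at D2 or D10. KO1 had 12.8 at D0, 16.2 at D2 and 22.3 at D10, so the lines parted after D0. WT had 14.1, 25 and 7.11 at D0 and 11.5, 9.57 and 8.52 at D2. It lies on chromosome 5, where KO1 held its excess of peaks. At chr2:3444660-3445161 the course was alike in KO2, with 10.5 at D0 and none later, and KO1 had 10.8, 6.55 and 8.45 at D0, D2 and D10.

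A later loss in KO2 was seen at chr7:28517891-28518716, with 10.9 at D0 and 7.96 at D2, and at chr17:6465750-6466466, with 8.56 at D0 and 4.44 at D2. KO1 kept both regions at D10, with 11.5 and 6.44. The longest cleared region, chr13:56210216-56213697 (3482 bp), had 6.44 at D0 and 7.59 at D2 in KO2, and 14.2, 7.50 and 9.15 at D0, D2 and D10 in KO1. All 5 of the longest cleared regions were of the class of KO2 alone; the others lay at chr16:58618352-58621185, chr9:83195417-83198066, chr11:6666426-6669000 and chr2:102781546-102784031. Only the region on chromosome 9 had no KO2 peak at D2.

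In the class of neither line the strongest was chr9:45430837-45431529 (693 bp). KO2 had 7.90 at D0 and 5.38 at D2, and KO1 had 7.88 at D0 and none at D2. WT had 11.3, 10.7 and 6.17 at D0 and 7.90, 9.52 and 6.75 at D2. Here KO1 had no peak from D2 on and KO2 none at D10. The same order was seen at chr5:91569255-91570639, with 6.46 and 5.69 in KO2 at D0 and D2 and 3.88 in KO1 at D0 alone, and at chr3:79126262-79126680, with 8.64 and 7.04 in KO2 and 5.88 in KO1 at D0 alone. At chr12:74731655-74732566 both lines had a peak on both days, of 7.10 and 6.23 in KO2 and 4.35 and 5.28 in KO1, and the mESC lists had 3.18 at 0 hours and 3.50 at 12 hours. At chr12:79784642-79785626 KO2 had a peak at D2 alone (3.8) and KO1 at D0 alone (7.06). The class as a whole leaned the other way, since 170 of its 473 regions (35.9%) had an earlier peak at D0 alone in KO2 and 110 (23.3%) in KO1.

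Of the 5 strongest regions of the class of KO1 alone, only the last named below had a KO1 peak at D2, while 72.4% of the class had one. The strongest was chr1:95101962-95103975 (2014 bp), with 4.08 in KO1 at D0 alone. KO2 had no peak at D0, 8.22 at D2 and 5.37 at D10. At chr2:166873714-166874317 neither line had a peak at D0 or D2, and KO2 had 3.82 at D10, while WT had 8.96, 11.2 and 6.49 at D0. At chr4:87058521-87059614 KO1 had 5.73 and KO2 7.52 at D0, neither had a D2 peak, and KO2 had 4.57 at D10. At chr15:79330454-79330962 KO1 had 7.11 at D0 alone, and KO2 had 5.02 at D2 and 4.76 at D10. The region chr8:19862943-19863572 was unlike the rest, with folds of only 2.41 to 5.40 in every pre-iPSC list of D0 and D2 despite a mean percentile of 85.1.

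Around the limits of the rule, 7242 further regions met it with 5 of the 6 WT lists of D0 and D2, and 1011 met it but for a peak in 1 of the 3 WT D10 lists. Of the cleared regions, 71 had a weakest WT peak with -log10 p under 5, and the lowest was 4.03. Of the retained regions, 63 had a weaker KO D10 peak under 5, the lowest also 4.03. These are regions that a slightly stricter peak threshold would move. A cleared region lay a median of 3.56 kb from the nearest WT D10 peak, and a retained one 3.02 kb. In the class of KO2 alone the nearest KO2 D10 peak was a median of 2.56 kb away, and within 1 kb for 27.2% of its regions.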

How the data were processed

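5hmC-bearing DNA was sonicated to 200 to 500 bp, glucosylated with an azide sugar, coupled to biotin, captured and amplified over 14 cycles, per the labels' protocols. Bowtie, SAMtools, MACS2 and mm9 come from the submitters' processing notes, with versions not given in the sources used here. The authors deposited 1 peak list per library (18 lists for 19 samples, the input having none), with a p threshold of 1e-04 in the run names. Each deposited list holds a score, the fold enrichment as a linear ratio and -log10 of p and q. Scores were not used. A label says that peaks were not called for mESC, yet those lists have the same layout and were used as deposited.

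Groups came from the titles. Nothing states that replicates came from separate cultures, and p-values cover only the spread of these libraries, which may be technical. Cleared and retained regions, tests and named regions were chosen with earlier results of these data known. Named regions are the 5 with the highest mean WT percentile per class, the 5 longest, and the 3 longest runs per line. Depth is relative to the input, as absolute depth is unknown. Exact sign-flip and permutation tests went through every assignment (numpy 2.4.6) and were checked on made-up values. Covered bp was tested in limma 3.58.1 (R 4.3.3) with Benjamini-Hochberg adjustment over all regions tested. The limma fit was also run on simulated data. KO lines pair by title; their deviations between D0 and D2 correlated by 0.194. Gene tables at hand were of another build and were not used. Alternatives were list length, threshold, overlap, merging distance, scaling, pseudocount, low-value filter, replicate block and leaving out each library.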

Additional observations from a re-analysis of the deposited data

How the results depend on the processing

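Averaged over libraries, the differences between cleared and retained regions in strength, width and KO share were below 0 under every alternative run. So was the mESC share difference at each time. Single D0 libraries did not all keep this sign. The KO share difference within bins of WT strength was 0.236 in KO1 and 1.93 in KO2 at D0. Ranked by fold, the strength difference at D0 was 1.4, -1.52 and 1.81 points in WT A, B and C. The strength difference was -3.8 points with lists of equal length. The KO share test cannot pass 0.05 with 4 libraries, so its p says nothing of stability. The number of cleared regions was 2547 with lists of equal length and 5885 to 8802 with 1 WT library left out. The share without a KO1 D10 peak was 6.92% with equal lists and 5.87 to 8.81% with a library left out. The share without a KO2 D10 peak was 50.1% with equal lists, 45.0% with an overlap of at least 200 bp, 42.9% with merging within 200 bp, and 41.3 to 48.9% with a library left out. The width difference was -127 to -106 bp with a library left out. The mESC difference at 0 hours was -4.15 points with equal lists and -3.78 within bins of WT strength. Leaving out a library gave -6.55 to -5.06 points at 0 hours, -3.0 to -1.77 at 12 hours and -0.535 to -0.135 at 72 hours.

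Cleared regions that fell from D0 to D2 (limma) numbered 328 in KO and 103 in WT without scaling, 2738 in KO and 1187 in WT when centred on the median region, and 79 in KO and 175 in WT with every region that had a peak in at least 1 library. As shares of cleared regions in WT these are 1.8, 20.8 and 3.06%, against 5.71, 22.6 and 3.15% of all regions, all below the background, unlike 9.93% against 7.79% as reported. In KO they are 5.73, 47.9 and 1.38%, against 2.03, 21.9 and 0.0915% of all regions, fewer of which had a KO peak at D0. Retained regions fell in KO in 0.757% of cases without scaling and in 25.6% when centred. With the replicate block they numbered 0 in KO and 317 in WT; WT letters did not pair (correlations 0.002, 0.006 and -0.006). Leaving out a library gave 227 to 1394 in KO and 182 to 970 in WT, where a lone KO sample is assumed to vary like the other groups. The cause of these shifts was not tested. Depth is known only relative to the input, and 1 library per KO line and day limits what can be said of either line.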
